A study of Mus musculus with 6 samples.

Results

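Genes of homologous recombination, of the Fanconi anaemia pathway and of the checkpoint kinases that signal damaged DNA were compared between proliferating and senescent mouse hepatic stellate cells. The list holds 36 genes, and 34 of them were measured, out of 18193 genes on the array that were read in the same way. A gene was read from the probe set annotated to its symbol alone, and where there were several, from the one with the highest mean over the 6 arrays. Xrcc2 and Rbbp8 were not analysed here. Stellate cells are liver pericytes that store vitamin A and turn into matrix-producing myofibroblasts after injury. There were 3 arrays of proliferating cells, given 1 ug/ml of doxycycline and labelled p53 knockdown, and 3 arrays of senescent cells, with the treatment label control and p53 expressed. All cells were of strain C57Bl/6 and carried CMV-rtTA;TRE-GFP-shRNA.p53.1224, in which doxycycline lets the rtTA activator, driven by a CMV promoter, turn on a green fluorescent marker with a hairpin against p53. Doxycycline, the hairpin and the growth state differ between the groups together, so their parts cannot be told apart. The hairpin's target transcript was not analysed here. The labels name no animal or culture behind an array, so the p-values cover the spread between these samples alone, and that spread may be technical.

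Homologous recombination repairs a broken chromosome by copying the intact sister chromatid, and so works mainly in the S and G2 phases. Nucleases first trim the broken ends, BRCA proteins then load a recombinase on the single strand, and remodelling enzymes help it invade the sister. The Fanconi pathway unhooks links between the strands of a helix: a core complex attaches ubiquitin to the FANCD2 and FANCI pair, which then brings in nucleases and recombination. The kinases ATM and ATR sense breaks and stalled forks, and pass the signal to CHK2 and CHK1, which hold the cell cycle. In senescent cells such damage signalling is known to keep p53 and the inhibitor p21 active.

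Expression was given as 1 log2 value per probe set and array, and each difference below is the proliferating minus the senescent mean on that scale. Array medians lay between 6.15 and 6.19, and on the second principal component (12.4% of the variance) proliferating replicate 1 lay apart from the other arrays. Cdkn1a, the p53 target that encodes p21, read 11.00, 11.03 and 11.10 on the proliferating arrays, against 12.85, 12.63 and 12.86 on the senescent arrays, a difference of -1.74 ± 0.083 (SE, limma adjusted p = 1.96e-05) (-1.14 on the scale of the poly-A spike-in controls). Of 12 stellate cell markers measured, 9 were above background, among them Col1a1, Acta2 and Des, while Lrat, Reln and Lhx2 were below it. Col1a1, Col1a2, Col3a1, Pdgfrb and Hand2 were called higher in proliferating cells, by 0.49 (Col1a2) to 1.30 (Pdgfrb), and none of the 12 lower, with a log2 of the 12 summed linear values of 16.86 to 16.90 on the proliferating and 16.66 to 16.67 on the senescent arrays. Background was set at 5.57, below which 95% of 44 probe sets for olfactory receptors had their mean. The macrophage markers Ptprc, Adgre1 and C1qa, the hepatocyte markers Alb, Cyp2e1, Fgb, Serpina1c and Tat and the endothelial markers Pecam1 and Vwf lay below it in both groups. Some markers of other liver cells differed: Krt19 (-0.58), Csf1r (-0.35) and Cdh5 (-0.72) were called lower and Krt7 (0.69) higher in proliferating cells. All 4 biliary markers were above background, with a log2 of their summed linear values of 10.97 to 11.03 on the proliferating and 11.30 to 11.45 on the senescent arrays. Of 8 macrophage markers 5 were above it (10.06 to 10.09 on the proliferating and 10.02 to 10.14 on the senescent arrays), and of 6 endothelial markers 1 was in proliferating and 2 were in senescent cells (8.07 to 8.30 on the proliferating and 8.31 to 8.34 on the senescent arrays). Of 7 hepatocyte markers 2, Apoa1 and Ttr, were above it (8.14 to 8.46 on the proliferating and 8.07 to 8.31 on the senescent arrays), and of 4 lymphocyte markers 2, Cd3e and Cd8a (7.77 to 7.92 on the proliferating and 7.84 to 7.96 on the senescent arrays), with none called. The part of such cells in the results below was not tested.

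The recombination, Fanconi and checkpoint genes were in part higher in proliferating cells, and none was called lower. Of the 34 measured, 12 were higher and 0 lower with a limma p, adjusted over all genes by the Benjamini-Hochberg method, under 0.05. Among all genes, 10.5% were called higher, 9.49% lower and 20.0% in either direction. The 12 are Fanci, Rad54l, Brca1, Chek2, Blm, Fancd2, Rad51c, Fancf, Rad51ap1, Chek1, Topbp1 and Dna2. The differences were small, from 1.24-fold for Dna2 to 1.47-fold for Fanci, and 2462 of the 3645 called genes of the array also changed less than 1.5-fold. The median difference of the 34 genes was 0.24, against 0.0018 for all genes, and 29 of the 34 had a positive difference, against 50.5% of all genes. All 3 proliferating arrays lay above all 3 senescent arrays for 23 of the 34, against 19.6% of all genes, and below them for 1, Mus81, against 17.4%. At an unadjusted p under 0.05, 21 of the 34 were higher and 1 lower, against 16.6% and 14.9% of all genes. The count of called genes was 7 when all probe sets of a gene were averaged (8.92% of all genes), and 33 (83.2%) when the scale of each array was taken from its poly-A spike-in controls, which moved the median of all genes to 0.60. That scale adds the same amount to every difference, so the order of the genes and their distance to the median of all genes stay as given. In bulk samples such as these, fewer cells that carry a transcript and less RNA of it per cell cannot be told apart.

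**Figure D1:**
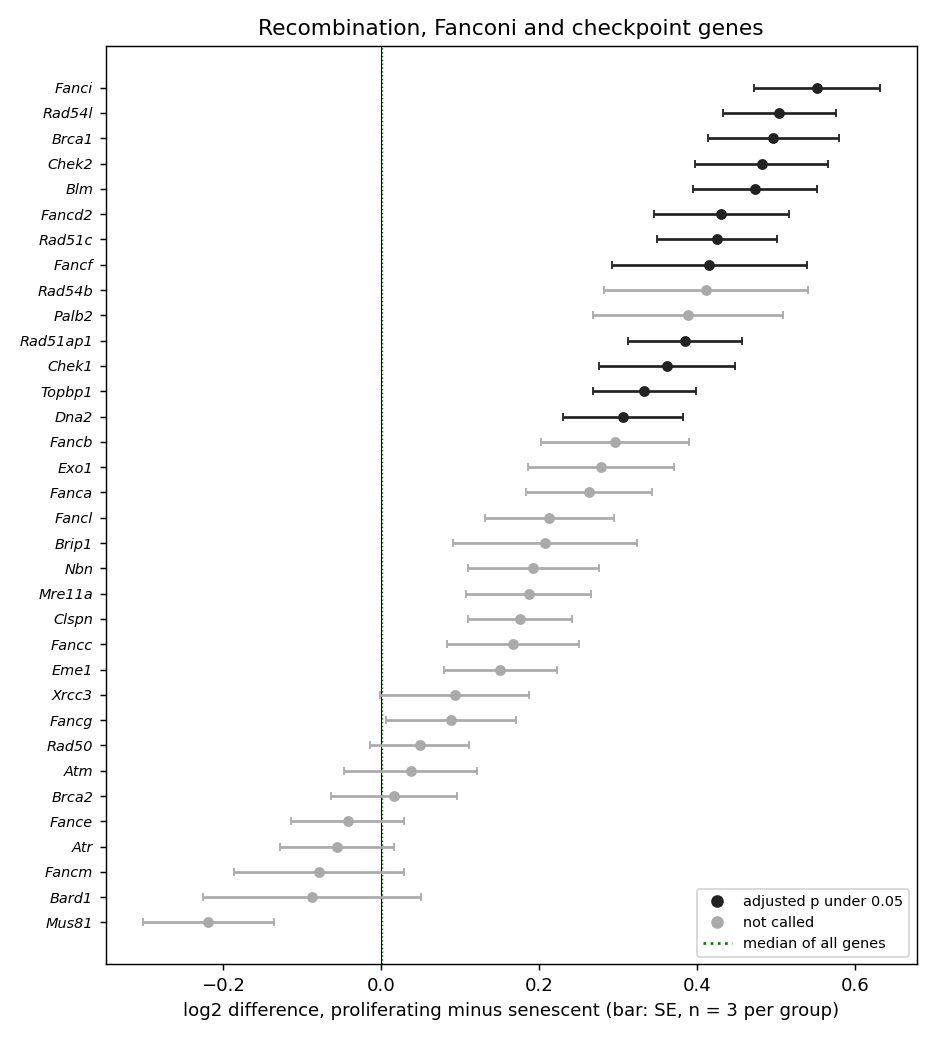
Log2 difference, proliferating minus senescent, of each of the 34 measured genes (horizontal axis, points, with bars for the SE, n = 3 arrays per group), ordered from the most positive to the most negative. Black points are the 12 genes with an adjusted p under 0.05, grey points the others, and the dotted line is the median of all genes; the genes run from 0.55 for Fanci to -0.22 for Mus81.

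Among the 6 genes of damage sensing and checkpoint kinases, the 2 effector kinases and an activator were higher in proliferating cells (10.5% of all genes). The genes of the 2 apical kinases were not called. Chek2 (Entrez gene 50883), which encodes CHK2, the kinase downstream of ATM, read 9.14, 8.96 and 8.96 on the proliferating arrays, against 8.43, 8.59 and 8.59 on the senescent arrays. The groups lay apart by more than the range within either, and the difference was 0.48 ± 0.084 (SE, limma adjusted p = 0.00507). Chek1, which encodes CHK1, the kinase downstream of ATR, read 9.27, 9.33 and 9.30 on the proliferating arrays, against 8.87, 9.10 and 8.83 on the senescent arrays, with senescent replicate 2 well above the other senescent arrays. Its difference was 0.36 ± 0.086 (SE, limma adjusted p = 0.0204). The call of Chek1 ended without proliferating replicate 2 or 3 or senescent replicate 1 or 3 (differences of 0.35, 0.36, 0.33 and 0.31, adjusted p of 0.0608 to 0.0757). Topbp1, whose product switches on ATR, read 11.56, 11.59 and 11.57 on the proliferating arrays, against 11.20, 11.29 and 11.22 on the senescent arrays, and the senescent values all lay below the lowest proliferating one. Its difference was 0.33 ± 0.065 (SE, limma adjusted p = 0.00869). Clspn, which encodes claspin, the adaptor between ATR and CHK1, read 9.13, 9.15 and 9.19 on the proliferating arrays, against 8.97, 8.94 and 9.03 on the senescent arrays. Its groups did not overlap, and the difference was 0.18 ± 0.066 (SE, limma adjusted p = 0.104). Atm read 9.06, 9.23 and 9.16 on the proliferating arrays, against 9.14, 9.21 and 8.99 on the senescent arrays, so that its groups overlapped, and its difference was 0.037 ± 0.084 (SE, limma adjusted p = 0.820). Atr had -0.055 ± 0.072 (SE, limma adjusted p = 0.673), with overlapping groups. Its sign depended on the reading: it turned to 0.54 with poly-A scaling and to 0.19 with its 3 probe sets averaged, and the other 2 sets gave 0.27 (above background, groups not overlapping) and 0.35 (below background).

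The genes of the MRN complex, which binds a broken end and activates ATM, were not called, and of the long-range resection enzymes 1 was. That is 1 of the 5 measured genes of end resection, against 10.5% of all genes called higher. Dna2, a nuclease and helicase that digests the end further, read 8.62, 8.74 and 8.80 on the proliferating arrays, against 8.35, 8.46 and 8.43 on the senescent arrays, and the difference was 0.31 ± 0.076 (SE, limma adjusted p = 0.0243). Its next brightest probe set, above background, gave -0.071. The call of Dna2 ended without proliferating replicate 2 or 3 or senescent replicate 1 or 3 (0.30, 0.27, 0.27 and 0.31, adjusted p of 0.0549 to 0.0973). Exo1, the exonuclease that works beside it, read 9.33, 9.48 and 9.59 on the proliferating arrays, against 9.25, 9.24 and 9.07 on the senescent arrays. The groups did not overlap, the difference was 0.28 ± 0.092 (SE, limma adjusted p = 0.0710), and it passed without proliferating replicate 1 (0.35, adjusted p = 0.0361). In the complex itself, Nbn, which encodes the subunit that docks ATM, read 9.58, 9.67 and 9.66 on the proliferating arrays, against 9.52, 9.52 and 9.30 on the senescent arrays, a difference of 0.19 ± 0.083 (SE, limma adjusted p = 0.154). Mre11a, the nuclease, read 9.67, 9.60 and 9.72 on the proliferating arrays, against 9.51, 9.56 and 9.36 on the senescent arrays, a difference of 0.19 ± 0.079 (SE, limma adjusted p = 0.146). That value turned to -0.058 in its other probe set, which lay above background, and was 0.064 with both averaged. In both genes senescent replicate 3 was the lowest array. Rad50, the third subunit, had 0.049 ± 0.063 (SE, limma adjusted p = 0.665). All 5 measured genes of end resection, read from their brightest sets, had proliferating arrays above the senescent ones without overlap (19.6% of all genes). For Rad50, though, the gap was only between 9.61, the lowest proliferating value, and 9.57, the highest senescent value.

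Of the 5 genes of BRCA proteins and their partners 1, Brca1, was called, against 10.5% of all genes called higher. Brca1 (Entrez gene 12189), which encodes a ubiquitin ligase that favours resection and loading of the recombinase, read 9.67, 9.48 and 9.64 on the proliferating arrays, against 9.17, 9.13 and 9.00 on the senescent arrays. The lowest proliferating array lay above the highest senescent one, and Brca1 was 1.41-fold higher, with a difference of 0.50 ± 0.083 (SE, limma adjusted p = 0.00423). Palb2, which bridges BRCA1 and BRCA2, read 7.26, 7.55 and 7.58 on the proliferating arrays, against 7.12, 7.24 and 6.87 on the senescent arrays, with a difference of 0.39 ± 0.12 (SE, limma adjusted p = 0.0554). It passed without proliferating replicate 1, its lowest proliferating array (0.49, adjusted p = 0.0238). Brip1, a helicase that binds BRCA1, had 0.21 ± 0.12 (SE, limma adjusted p = 0.277), with overlapping groups. Brca2, which delivers the recombinase to single-stranded DNA, read 9.21, 9.05 and 9.07 on the proliferating arrays, against 9.19, 9.02 and 9.08 on the senescent arrays. Its groups had nearly the same range, and the difference was 0.017 ± 0.08 (SE, limma adjusted p = 0.922). Bard1, the obligate partner of BRCA1, was the 1 gene of the 34 with an array below background. It read 5.95, 5.56 and 5.80 on the proliferating arrays, against 6.11, 5.65 and 5.82 on the senescent arrays, so the groups overlapped, with a difference of -0.087 ± 0.14 (SE, limma adjusted p = 0.735) that turned to 0.51 with poly-A scaling.

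Genes of strand exchange were called higher in 3 of 5 cases (10.5% of all genes), and all 5 had a positive difference (50.5% of all genes). Rad54l (Entrez gene 19366), a motor protein that helps the recombinase filament invade the sister chromatid, read 8.70, 8.71 and 8.71 on the proliferating arrays, against 8.26, 8.24 and 8.10 on the senescent arrays. The proliferating arrays were nearly equal to each other, and the difference was 0.50 ± 0.071 (SE, limma adjusted p = 0.00199). Rad51c, a paralog of the recombinase that stabilises its filament, read 8.16, 8.25 and 8.20 on the proliferating arrays, against 7.83, 7.83 and 7.66 on the senescent arrays, a difference of 0.42 ± 0.076 (SE, limma adjusted p = 0.00588). Rad51ap1, which stimulates joint formation by the recombinase, read 9.37, 9.49 and 9.54 on the proliferating arrays, against 9.05, 9.11 and 9.08 on the senescent arrays, a difference of 0.38 ± 0.072 (SE, limma adjusted p = 0.00723). In each of these 3 genes every proliferating array lay above every senescent array. Rad54b, a relative of Rad54l, read 6.80, 6.73 and 6.85 on the proliferating arrays, against 6.66, 6.37 and 6.12 on the senescent arrays. Its senescent arrays spread widely, the difference was 0.41 ± 0.13 (SE, limma adjusted p = 0.0581), and it passed without senescent replicate 1 (0.55, adjusted p = 0.0143). Probe sets annotated to both Rad54b and Fsbp were not read. Xrcc3, another paralog of the recombinase, had 0.093 ± 0.094 (SE, limma adjusted p = 0.569), with overlapping groups.

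Both genes of the Fanconi ID complex were higher in proliferating cells. Of the 8 core complex genes 1 was called, or 12.5%, near the 10.5% of all genes called higher. Fanci (Entrez gene 208836) read 8.28, 8.26 and 8.44 on the proliferating arrays, against 7.82, 7.82 and 7.69 on the senescent arrays. This was the largest difference of the 34, 0.55 ± 0.08 (SE, limma adjusted p = 0.00218), or 1.47-fold. Its partner Fancd2 read 7.64, 7.81 and 7.88 on the proliferating arrays, against 7.40, 7.38 and 7.26 on the senescent arrays, and the difference was 0.43 ± 0.086 (SE, limma adjusted p = 0.00923). Neither gene had overlapping groups. In the core complex, which carries the ubiquitin ligase, Fancf, an adaptor subunit, read 7.87, 7.91 and 8.14 on the proliferating arrays, against 7.69, 7.68 and 7.31 on the senescent arrays. The difference was 0.42 ± 0.12 (SE, limma adjusted p = 0.0477), and the call ended without any 1 of the 6 arrays, with differences of 0.29 to 0.48 and adjusted p of 0.0573 to 0.145. Apart from Fancf, Chek1 and Dna2, the called genes kept their calls without any 1 of the 6 arrays.

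The other core complex genes did not pass the test. Fancb, a partner of the ligase subunit, read 8.96, 9.11 and 9.17 on the proliferating arrays, against 8.84, 8.88 and 8.63 on the senescent arrays, a difference of 0.30 ± 0.094 (SE, limma adjusted p = 0.0601). Fanca, which helps bring the complex into the nucleus, read 8.39, 8.44 and 8.31 on the proliferating arrays, against 8.07, 8.04 and 8.24 on the senescent arrays, a difference of 0.26 ± 0.08 (SE, limma adjusted p = 0.0518). Neither gene had overlapping groups. Fancb passed without proliferating replicate 1 (0.35, adjusted p = 0.0447), and Fanca without senescent replicate 3 (0.32, adjusted p = 0.0332). Fancl, the ubiquitin ligase subunit, read 9.09, 9.08 and 9.15 on the proliferating arrays, against 9.01, 8.91 and 8.76 on the senescent arrays, so that its groups did not overlap, and the difference was 0.21 ± 0.082 (SE, limma adjusted p = 0.113). Fancc and Fancg, further subunits, had 0.17 ± 0.083 and 0.088 ± 0.082 (adjusted p of 0.218 and 0.531), with overlapping groups. Fance, and Fancm, a translocase that anchors the complex to DNA, had -0.042 ± 0.072 and -0.078 ± 0.11 with overlapping groups (adjusted p of 0.754 and 0.688), which turned to 0.55 and 0.52 with poly-A scaling.

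Enzymes that take apart joined chromosomes gave 1 call among 3 genes, for Blm, against 10.5% of all genes called higher. Blm, a helicase that dissolves crossed junctions, read 8.24, 8.44 and 8.44 on the proliferating arrays, against 7.95, 7.89 and 7.87 on the senescent arrays. Every proliferating array lay above every senescent array, and the difference was 0.47 ± 0.079 (SE, limma adjusted p = 0.00414), or 1.39-fold. Mus81, a nuclease that cuts such junctions, read 7.91, 8.03 and 8.16 on the proliferating arrays, against 8.28, 8.19 and 8.28 on the senescent arrays. It was the 1 gene of the 34 whose proliferating arrays all lay below the senescent ones, with a difference of -0.22 ± 0.083 (SE, limma adjusted p = 0.110). It passed among genes above the median level (adjusted p = 0.0482) and turned to 0.38 with poly-A scaling. Its other probe set gave -0.28. Eme1, the partner of Mus81, read 7.84, 7.86 and 7.81 on the proliferating arrays, against 7.78, 7.63 and 7.64 on the senescent arrays. Its groups did not overlap, in the opposite order to Mus81, and the difference was 0.15 ± 0.072 (SE, limma adjusted p = 0.195).

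**Figure D2:**
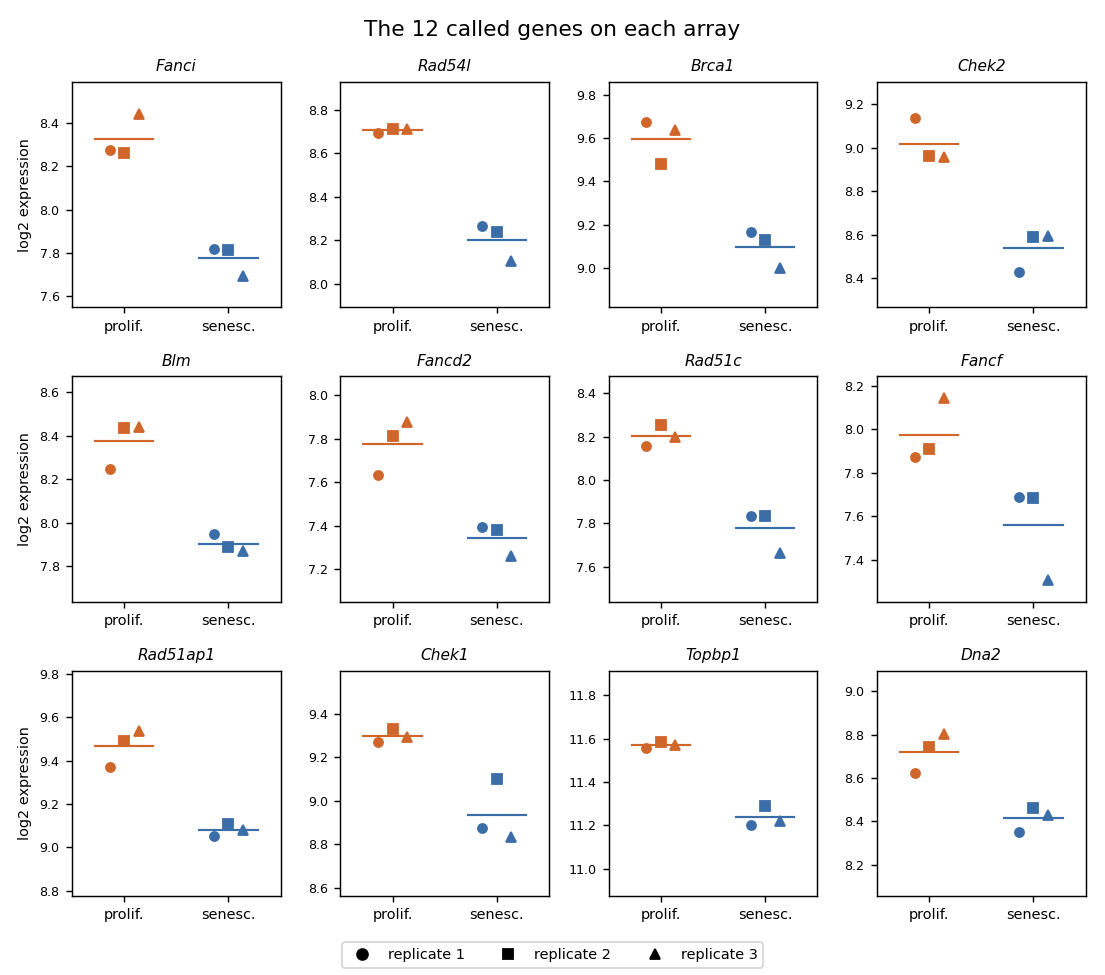
Log2 expression (vertical axes, each spanning the same range) of the 12 genes with an adjusted p under 0.05 on the 3 proliferating arrays (left, orange) and the 3 senescent arrays (right, blue), with symbols for the replicate number and a line at each group's mean. In all 12 panels the lowest proliferating array lies above the highest senescent array, as for Rad54l with 8.70 against 8.26.

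The arrays of a group did not read these genes equally. Senescent replicate 3 held the lowest senescent value for 20 of the 34 genes, senescent replicate 2 for 9 and senescent replicate 1 for 5. Its median deviation from the group mean over the 34 genes was -0.081, against 0.035 and 0.043 for replicates 2 and 1. Proliferating replicate 1 held the lowest proliferating value for 19 genes, replicate 2 for 12 and replicate 3 for 3. These counts and deviations were not taken over all genes, so they are not shown to be particular to the 34. The bacterial poly-A transcripts, spiked in before labelling, averaged 10.61 ± 0.097 on the proliferating arrays and 11.21 ± 0.27 on the senescent arrays (SD, n = 3 each), and they read highest, 11.51, on senescent replicate 3. Without senescent replicate 3, 10 of the 34 were called higher, with 7.60% of all genes, and their median difference was 0.22. Without proliferating replicate 1, 14 were called, with 9.75%, and the median was 0.24. Leaving out 1 of the other arrays gave 9 to 11. Each such fit has fewer arrays in a group, so these counts do not measure the part of 1 array.

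Several probe sets measured 25 of the 34 genes, 76 probe sets in all, so the values could be compared within a gene. In a fit over all probe sets, 17 of the 76 were called higher and 0 lower, with several sets of the same gene among them. Of the brightest sets alone, 11 of 34 were higher, against 8.22% over all genes. The share of calls among all probe sets was not counted, so the 17 and the counts of dimmer sets below have no share beside them. All 4 probe sets of Rad51ap1 were called, with differences of 0.38, 0.43, 0.38 and 0.54. Both of Rad51c were called, the dimmer one with 0.65, the largest difference among the 76. Of the 4 probe sets of Rad54l, 2 were called, with 0.50 and 0.41, and the others gave 0.55 and 0.22. Brca1 was called in its brightest set, and the other 3 gave 0.34, 0.26 and 0.093. Fancb, not called in its brightest set, was called in its other one (0.45, limma adjusted p = 0.0309). Among the 23 dimmer sets of the called genes, 15 lay above background, of which 14 had a positive difference and 5 were called. The exception in sign was a set of Dna2, at 5.73, with -0.071. The other 8 lay below background, 4 of them with a positive difference and none called. Of the 21 measured genes with 2 or more sets above background, 15 had the same sign in all of these sets. With all sets of a gene averaged, Fanci gave 0.19 (adjusted p = 0.0910). Its second set, at 4.03 and below background, gave -0.18. Fancd2, Dna2, Topbp1, Chek1 and Fancf also lost their calls, with 0.16, 0.097, 0.21, 0.21 and 0.14. The other set of Topbp1 lay above background, at 6.23, and gave 0.083. The part of dim sets in these losses was not tested. Brca1 kept its call at 0.30 (adjusted p = 0.0295). Among genes not called, Clspn, Fancc and Exo1 gave 0.068, 0.024 and 0.17, and Rad50 0.17. The brightest set of Chek1 may also bind other transcripts by its design, and its gene-specific set gave 0.42 (adjusted p = 0.0917).

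**Figure D3:**
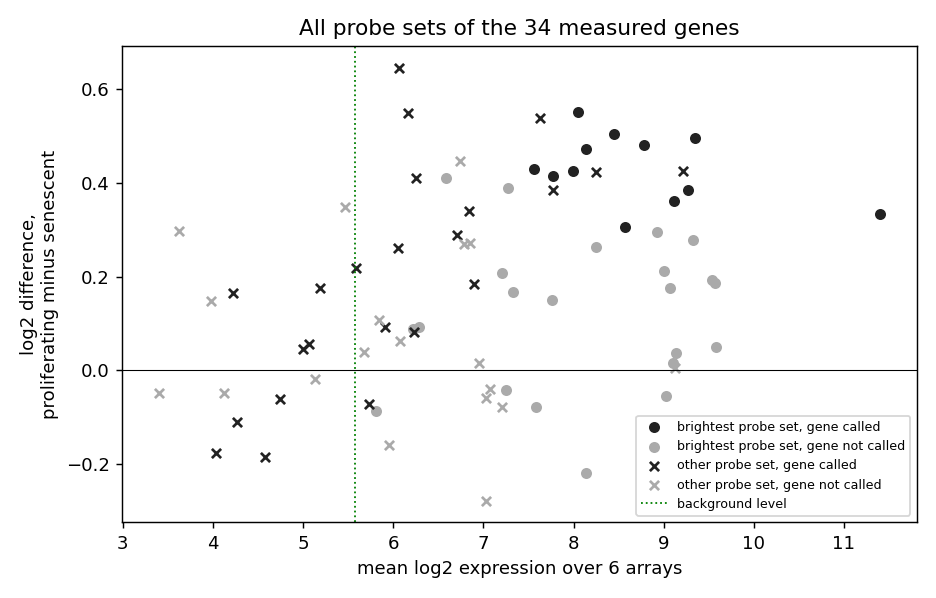
Mean log2 expression over the 6 arrays (horizontal axis) and log2 difference, proliferating minus senescent (vertical axis), of all 76 probe sets of the 34 genes. Circles are the brightest probe set of each gene and crosses the others, black for the 12 called genes and grey for the rest, and the dotted line is the background level of 5.57; the black circles all lie right of it, between 0.31 and 0.55.

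Other genes of the same pathways showed calls in both directions. Of 59 measured from a list of further recombination, crosslink repair and checkpoint genes, 13 were higher and 3 lower in proliferating cells, against 10.5% and 9.49% of all genes, with a median of 0.16. Rpa3, the small subunit of the protein that coats single-stranded DNA, read 10.51, 10.62 and 10.64 on the proliferating arrays, against 9.95, 10.09 and 9.79 on the senescent arrays, a difference of 0.65 ± 0.091 (SE, limma adjusted p = 0.00190). Fignl1, a partner of the recombinase, and Etaa1, an activator of ATR, had 0.63 ± 0.092 and 0.60 ± 0.088 (adjusted p of 0.00231 and 0.00243). In these 3 genes the groups did not overlap. Rad51b, Mnd1 and Rad52, which act in strand exchange, had 0.53 ± 0.13, 0.52 ± 0.11 and 0.49 ± 0.099 (adjusted p of 0.0218, 0.0148 and 0.00943). Rad51b lay below background on 1 senescent array. Its call ended without senescent replicate 1, 2 or 3 (0.55, 0.55 and 0.48), and that of Mnd1 without proliferating replicate 3 or senescent replicate 3 (0.44 and 0.44). Rad52 was not called when read from its other probe set (0.26, adjusted p = 0.289). With all sets averaged, Rad52 and Rad51b lost their calls (0.38 and 0.24, adjusted p of 0.0556 and 0.113), and Fignl1 gave 0.38.

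The 3 called lower include both subunits of the nuclease that cuts beside a crosslink in Fanconi repair and that also works in nucleotide excision repair. Ercc1 (Entrez gene 13870) read 10.39, 10.30 and 10.30 on the proliferating arrays, against 11.37, 11.29 and 11.49 on the senescent arrays. It was 2.07-fold lower in proliferating cells, with a difference of -1.05 ± 0.077 (SE, limma adjusted p = 1.07e-04), and its next brightest probe set gave -0.93. Its next set, above background, gave -0.16 (adjusted p = 0.379) and its dimmest, below background, 0.16, so that the average of the 4 was -0.50, still called (adjusted p = 0.00147). The sign of Ercc1 was the same with poly-A scaling (-0.45). Ercc4, which encodes the catalytic subunit, read 7.73, 7.99 and 7.82 on the proliferating arrays, against 8.32, 8.20 and 8.35 on the senescent arrays, a difference of -0.44 ± 0.088 (SE, limma adjusted p = 0.00987), which turned to 0.16 with poly-A scaling. Its call ended with its 4 probe sets averaged (-0.23, adjusted p = 0.0726), and the 2 other sets above background gave 0.00682 and -0.17. Atrip, the partner of ATR, had -0.30 ± 0.08 (SE, limma adjusted p = 0.0309), which turned to 0.29 with poly-A scaling. Its call ended without any 1 of 5 arrays, proliferating replicate 1, 2 or 3 (-0.28, -0.33 and -0.29) or senescent replicate 1 or 3 (-0.27 and -0.28).

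Genes of DNA replication and division were higher in proliferating cells beside these. Of 29 proliferation markers measured, 19 were higher and 0 lower, against 10.5% and 9.49% of all genes, with a median of 0.35. Mki67, which encodes the Ki-67 antigen of cycling cells, read 12.20, 12.40 and 12.32 on the proliferating arrays, against 11.59, 11.61 and 11.78 on the senescent arrays, a difference of 0.64 ± 0.085 (SE, limma adjusted p = 0.00150). Ccnb2, a mitotic cyclin, had 1.10 ± 0.065 (SE, limma adjusted p = 4.40e-05). Mki67 still lay far above background on every senescent array, at 11.66 ± 0.10 (SD, n = 3). Of the replication genes, Mcm5 had 0.33 ± 0.065 and Pcna, the sliding clamp, 0.32 ± 0.079 (adjusted p of 0.00860 and 0.0228), while Mcm2 and E2f1 were not called (0.14 ± 0.077 and -0.15 ± 0.081, and 0.44 for E2f1 with poly-A scaling). Mcm5 was not called in its gene-specific set (0.24) or with all sets averaged (0.21). The call of Pcna ended without proliferating replicate 2 or 3 or senescent replicate 1 or 3 (0.31, 0.32, 0.34 and 0.26). The count of markers called higher was 12 without proliferating replicate 3 (7.32% of all genes) and 12 without senescent replicate 3 (7.60%). Many genes of recombination and crosslink repair are known to be transcribed in S and G2 phase, and the part that the share of cycling cells has in the differences of the 34 genes was not tested.

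**Figure D4:**
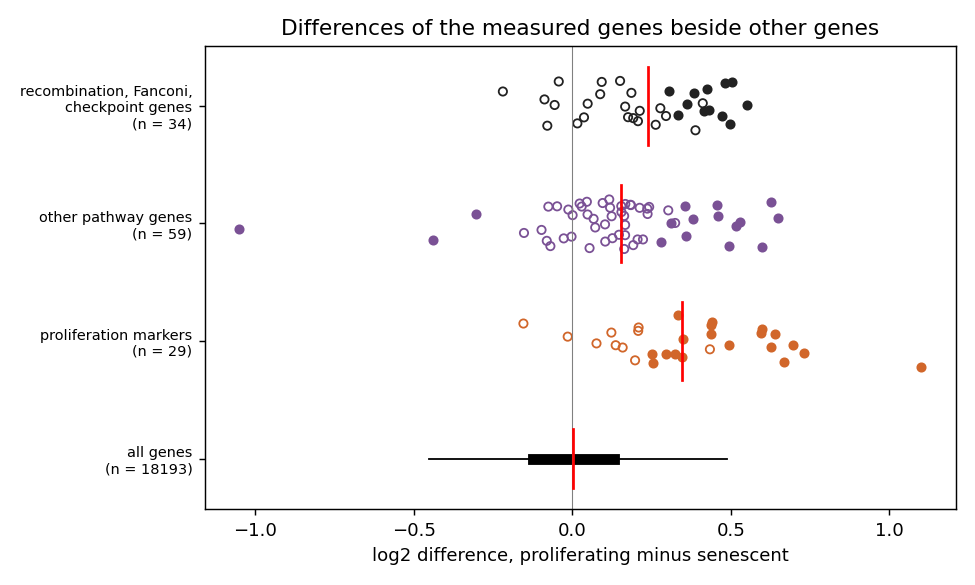
Log2 difference, proliferating minus senescent (horizontal axis), of the 34 measured recombination, Fanconi and checkpoint genes, of 59 other genes of these pathways and of 29 proliferation markers (points, filled where the adjusted p is under 0.05), above all 18193 genes (thick bar for the middle 50%, thin line for the middle 90%). Red lines are medians, 0.24 for the 34 genes, 0.16, 0.35 and 0.0018 for the others in that order; the point at the far left is Ercc1 with -1.05.

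Promoters of the genes were looked at for motifs of cell cycle transcription, since p53 and p21 are known to repress cycle genes through factors that bind E2F and CHR elements. RefSeq promoter windows of assembly GRCm38.p6, with 250 bases before and 50 after a start, were available for 29 of the 36 genes. The letters searched, on both strands, were TTTGGCGC, TTTCGCGC, TTTCCCGC and TTTGCCGC (E2F-type), TTTGAA (CHR-type) and CCAAT, and 0 matches of different motifs overlapped in these genes. An E2F-type match stood in the windows of 7 of the 29 genes, Brca2, Bard1, Rad51c, Fancg, Chek2, Topbp1 and Clspn, against 2.605% of 27025 genes in the table. Of the 11 called genes with a window 3 held one, and of the 18 others 4. A CHR-type match stood in 2 of 29, Bard1 and Eme1, against 20.2% of all genes, and CCAAT in 17, against 41.1%. The 190 bases before the start lay inside another annotated gene for 12 of the 29, among them Brca1 (beside Nbr1) and Chek2 (beside Hscb), against 29.1% of all genes. The comparison genes were neither limited to those on the array nor matched to the 29 in base content. A match describes letters and not a binding site.

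Shown are the 190 bases before the start of 4 genes, where these bases lie clear of other annotated genes. The 4 were chosen after their values were seen. Topbp1 and Brca2 each hold an E2F-type match, Topbp1 called and Brca2 not, and Blm and Rad51ap1, both called, hold CCAAT. Capitals mark these matches, and each line runs 5′ to 3′ toward the start.
Topbp1, chr9:103305137-103305326, plus strand: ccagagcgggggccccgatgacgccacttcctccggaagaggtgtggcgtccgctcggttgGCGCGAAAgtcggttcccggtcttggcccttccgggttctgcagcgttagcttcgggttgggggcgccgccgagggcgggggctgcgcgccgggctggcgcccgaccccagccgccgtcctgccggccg
Brca2, chr5:150522431-150522620, plus strand: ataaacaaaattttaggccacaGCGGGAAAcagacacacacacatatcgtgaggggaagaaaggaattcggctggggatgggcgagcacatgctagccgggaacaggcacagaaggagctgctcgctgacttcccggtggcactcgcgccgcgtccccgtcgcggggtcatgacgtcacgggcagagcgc
Blm, chr7:80534999-80535188, minus strand: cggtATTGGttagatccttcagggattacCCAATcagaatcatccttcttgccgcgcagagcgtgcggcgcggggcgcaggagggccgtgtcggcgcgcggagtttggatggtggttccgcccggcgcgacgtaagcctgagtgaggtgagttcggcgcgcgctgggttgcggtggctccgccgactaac
Rad51ap1, chr6:126939588-126939777, minus strand: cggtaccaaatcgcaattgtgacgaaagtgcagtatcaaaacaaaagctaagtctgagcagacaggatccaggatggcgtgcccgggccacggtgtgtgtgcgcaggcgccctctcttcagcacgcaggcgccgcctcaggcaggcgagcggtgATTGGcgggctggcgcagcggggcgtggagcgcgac
The match in Topbp1 begins 129 bases before the start and that in Brca2 168. Beside these, Topbp1 had a difference of 0.33 ± 0.065 and Brca2 of 0.017 ± 0.08, so an E2F-type match was found both with and without a call.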

How the data were processed

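Total RNA of the 6 samples was extracted with Trizol and biotin-labelled for Affymetrix arrays, per the labels' protocols. The submitters' processing notes name RMA, and the authors deposited its log2 values, 1 per probe set and array. RMA subtracts background, gives every array one distribution and joins the probes of a set, so each difference is relative to the other genes. Version, chip description and filters: not given in the sources used here. No array was left out.

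Of 45101 probe sets, 34945 were annotated to 1 gene symbol, 932 to several and 9160 to none, with 64 controls. Symbols were updated by Entrez number with RefSeq GRCm38.p6, which held 34741 of those numbers. For each of 18193 genes the probe set of highest mean was used. Sample titles gave the groups. The comparison was fitted without covariates by limma 3.58.1 in R 4.3.3 (lmFit, then eBayes), and the p-values were adjusted over all genes by the Benjamini-Hochberg method. The fit was tested on simulated data, where it called 10.4% of true differences of 0.3, 77.6% of 0.5 and 100% of 1. That simulation changed far fewer genes and gave 134 calls, 9 of them false, against 3645 in the data. Its adjusted threshold was therefore stricter, and these shares do not give the recovery of the reported fit. A gene without a call may still differ. The precision is limited by 3 arrays per group (median SE 0.0884). No test was run over a list. Figures were drawn with matplotlib 3.10.9.

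The 36 genes, the further pathway genes and the markers were chosen with earlier results of these data known. All 36 were accounted for, those with a call in the fit by their value on each array. Of the further pathway genes, up to 6 called genes in each direction were named by size of difference, and of the markers Mki67, Ccnb2, Pcna, Mcm2, Mcm5 and E2f1. Alternatives covered probe set choice, filters on dim genes, scaling, the variance model, array weights, the replicate number as a block and leaving out each array.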

Additional observations from a re-analysis of the deposited data

How the results depend on the processing

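Of the 34 genes, 12 were called higher in proliferating cells as reported (10.5% of all genes; the share of all genes tested in a setting follows each count in brackets). The count was 7 (8.92%) with all probe sets averaged, 10 (9.72%) with gene-specific probe sets, 11 (8.22%) in a fit over all probe sets, 9 (7.35%) with median centring (without Fancf, Dna2 and Chek1), 17 (17.4%) among genes above background, 17 (12.5%) with a robust variance trend and 16 (12.2%) with array weights. Among the 26 above the median level 17 (22.7%) were higher and 1, Mus81, lower. Leaving out 1 array gave 9 to 14 of the 34 (7.17% to 9.75%), 9 to 15 further pathway genes higher and 2 to 3 lower, and 12 to 17 markers higher. With poly-A scaling, 33 of the 34 (83.2%), 56 further pathway genes and 29 markers were called higher and 1 further pathway gene lower, as the median of all genes was 0.60. The differences of Bard1, Fance, Fancm, Atr, Ercc4, Atrip and E2f1 then turned to 0.51, 0.55, 0.52, 0.54, 0.16, 0.29 and 0.44. Of all called genes, 52.6% were higher as reported, 36.8% with median centring and 98.9% (15140 genes) with poly-A scaling. Gene-specific probe sets were taken as those without _s, _x or _a in the name, where a gene had any. This rule rests on names alone, and whether the sets left out bind other genes was not checked. With them 1 marker, E2f1, was called lower (-0.33). Restricted to bases before the start, 5 of the 29 genes with a promoter window held an E2F-type match, against 2.16% of all genes.

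Same-numbered arrays did not deviate together (correlations of 0.094, -0.068 and -0.15 between deviations from the group means for replicates 1, 2 and 3), so the numbers were not taken as pairs. With the replicate number as a block, 11 (8.48%) of the 34 genes were called higher, without Fancf. Over all settings, single genes lost a call in 53 cases and gained one in 50, of 788 in all, 1 case being 1 named gene in 1 setting and turns of sign included. The causes of these changes were not tested, and the small differences lie near what 3 arrays a group can resolve.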
